A study of Mus musculus with 12 samples.

Results

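The transcripts of 7 receptors for neurotrophins and GDNF family ligands (Ntrk2, Ntrk3, Ngfr, Ret, Gfra1, Gfra2 and Gfra3) were followed through ribosome pull-downs from cultured mouse dorsal root ganglion (DRG) neurons. They were chosen by gene symbol. All 7 were among the 9112 genes listed for both genotypes, of 14177 genes listed for either, and all 7 passed the filter on low values (mean FPKM above 1). The cultures came from RiboTag mice, in which Cre switches the ribosomal protein Rpl22 to an HA-tagged form, so that an antibody to HA collects the ribosomes of Cre-expressing cells with their RNA. The groups were HA pull-downs and inputs (10% of the lysate) of Rpl22HA/HA Runx3-Cre+ neurons, in which the Runx3 gene drives Cre, and the same 2 fractions of Rpl22HA/HA Runx3-Cre- neurons, with 3 libraries each, 12 in all. By the sample labels, both genotypes carried the tagged allele on both chromosomes, and the Cre- cultures had no Cre to switch it on. Each sample pooled neurons of 5 male mice aged 3 to 6 months per the labels, from all ganglia, purified on Percoll and grown for 24 h. Since whole pools were sequenced, fewer cells of a type and less RNA per cell cannot be told apart, and p-values measure the spread between pools.

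Neurotrophins signal through Trk receptor tyrosine kinases and through p75NTR, the product of Ngfr, a receptor of the TNF receptor family that binds all mature neurotrophins and, with sortilin, their precursors. Ntrk3 encodes TrkC, the receptor of neurotrophin-3, on which proprioceptive neurons depend for survival, and Ntrk2 encodes TrkB, the receptor of BDNF and neurotrophin-4. GDNF family ligands bind a membrane-anchored co-receptor, and the complex activates the kinase Ret. The co-receptor sets the preference, with Gfra1 for GDNF, Gfra2 for neurturin and Gfra3 for artemin. In the DRG, Ntrk3 and Runx3 mark proprioceptive neurons, whereas Ret with Gfra2 and Gfra3 is known from non-peptidergic, low-threshold mechanoreceptive and peptidergic neurons.

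Between 8886308 and 18633365 counts per library fell on listed genes. The labels were checked first. Runx3, whose gene drives Cre, had 22.8, 2.07 and 11.1 normalized counts (counts scaled to 1000000 per library after TMM) in the pull-downs labelled Cre+ and 20.8, 36.0 and 51.4 in those labelled Cre-, against 1.90 to 5.55 in the 6 inputs. It was called higher in the pull-down only in the libraries labelled Cre- (log2 fold change 3.52 ± 0.43 SE, FDR = 0.000466) and not in those labelled Cre+ (1.55 ± 0.86, FDR = 0.302). The enrichments were not shown to differ (difference -1.92 ± 0.99, FDR = 0.30). The summed level of the proprioceptor markers went the same way, from 216 to 339 in the inputs to 1291 to 1575 in the pull-downs labelled Cre-, and from 172 to 280 to 185 to 678 in those labelled Cre+. The sums cover 8 markers in Cre- and 7 in Cre+, where Pvalb was not listed. These values go against the labels. The sample labels name 1 table for each genotype, and the columns of the Cre- table are marked wt. Those of the Cre+ table are marked Cre but match no sample title of that group. Its pull-down columns resemble, apart from punctuation, titles of Cre- pull-downs. The study's other measurements that bear on the genotypes were not analysed here. All directions given here follow the labels as deposited, and each depends on them. All 10 pan-neuronal markers were listed, with a summed level of 22050 to 30200 in the inputs, so the cultures carried the RNA of the labelled cell type. Their sum was 22620 to 25040 in the Cre+ pull-downs, with 3 of the 10 called lower (2.49% of all genes), and 50070 to 57760 in the Cre- pull-downs, with 4 called higher (6.06% of all genes).

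Promoter windows from RefSeq (GRCm38.p6, the build of the alignment) matched 3 of the 7 (Ntrk2, Ngfr and Gfra1). Upstream sequence outside annotated exons and genes was left for Ntrk2 (chr13:58806319-58806471, + strand) and Ngfr (chr11:95587736-95587948, - strand), and is shown because Runx3, the gene behind Cre, encodes a factor of the Runt family, whose core motif is TGTGGT. Both strands were searched (TGTGGT or ACCACA), and capitals mark a match.
Ntrk2: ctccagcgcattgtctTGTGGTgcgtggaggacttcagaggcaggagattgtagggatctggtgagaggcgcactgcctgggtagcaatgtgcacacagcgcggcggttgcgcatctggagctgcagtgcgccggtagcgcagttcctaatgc
Ngfr: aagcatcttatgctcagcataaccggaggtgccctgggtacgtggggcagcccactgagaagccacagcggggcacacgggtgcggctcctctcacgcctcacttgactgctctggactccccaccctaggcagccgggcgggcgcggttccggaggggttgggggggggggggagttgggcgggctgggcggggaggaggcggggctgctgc
The Ntrk2 sequence holds 1 match, which begins 137 bases before the first annotated base of the gene and 234 bases before the start to which its RefSeq window is set, and the Ngfr sequence none. Of the whole windows of 300 bases, that of Ntrk2 held the motif and those of Ngfr and Gfra1 did not. It was held by 5506 (16.8%) of all 32851 windows, so a match is common and the letters alone mark no binding site.

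The genes lie on 7 chromosomes (RefSeq coordinates, GRCm38). Ntrk2 is at chr13:58806472-59133970 on the + strand, Ntrk3 at chr7:78179986-78581034, Ngfr at chr11:95568818-95587698, Ret at chr6:118151748-118197744 and Gfra1 at chr19:58235581-58455946 on the - strand, Gfra2 at chr14:70890107-70979840 on the + strand, and Gfra3 at chr18:34689898-34720387 on the - strand. Counts fell on exons. In GENCODE M21, 7.6% of the exon bases of Gfra1 are shared with an antisense gene, Gm16277, and no exon bases of the other 6 with any gene.

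Levels were compared between genes per length, using the transcript length implied by the deposited FPKM (normalized counts per kb). Ngfr was the most abundant receptor in the inputs, with 256 ± 9.6 (SD, n = 3) in Cre+ and 275 ± 6.5 in Cre-. Ret followed with 110 ± 23 and 118 ± 18. Gfra3, Gfra2, Ntrk3 and Gfra1 lay close together, between 28.3 and 19.7 in the Cre+ inputs and between 32.9 and 20.9 in the Cre- inputs. Neighbours among these 4 overlapped in both genotypes. Ntrk2 was lowest, with 7.25 ± 0.48 and 5.92 ± 2.5, below every library of the gene above it.
In the pull-downs the order was different. In Cre+, Ngfr (334 ± 35) and Ret (137 ± 20) stayed on top and Ntrk3 came next with 89.8 ± 15, above every library of Gfra2 (36.0 ± 14). In Cre-, Ret (143 ± 27) and Ngfr (138 ± 25) overlapped, followed by Ntrk3 (96.3 ± 11) and Gfra1 (55.4 ± 26), each apart from its neighbours. Gfra2 (15.3 ± 12), Gfra3 (7.28 ± 2.1) and Ntrk2 (5.32 ± 2.5) overlapped with their neighbours at the low end. The place of Ntrk3 depends on the length used. The deposited FPKM imply 3.19 kb for it, whereas all exons of its 20 GENCODE transcripts cover 30.2 kb, and with that length Ntrk3 would be last of the 7 in the inputs and rank 6 in the Cre+ and 5 in the Cre- pull-downs.

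**Figure D1:**
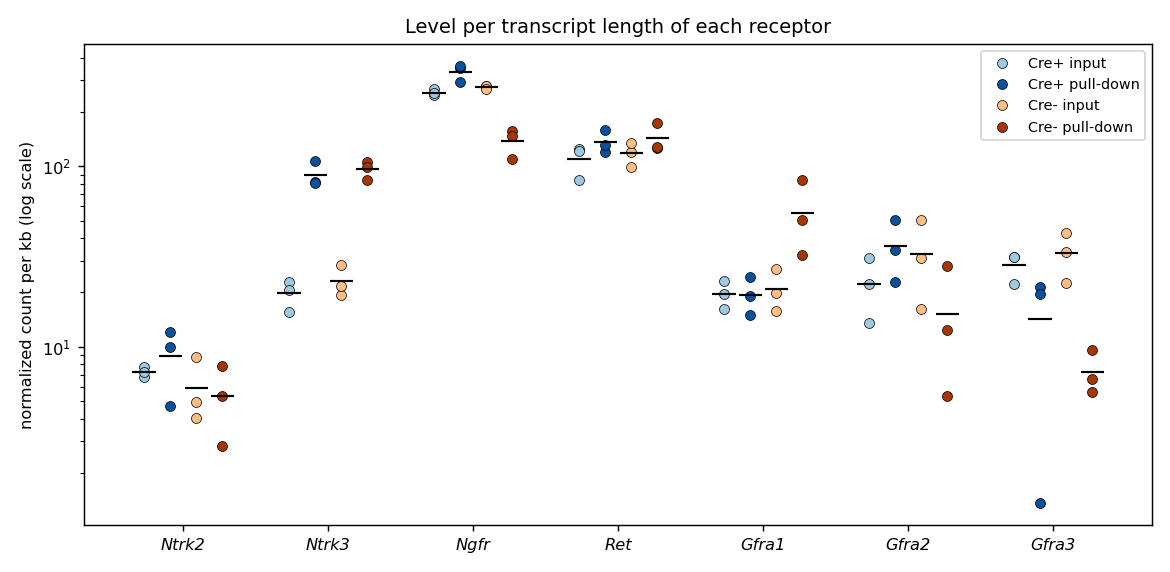
Normalized counts per kb (log axis) of the 7 receptors, with the length implied by the deposited FPKM. Points are libraries, 3 per group, and black lines are means. Ngfr and Ret lie highest in all groups, Ntrk3 moves from about the level of Gfra1 in the inputs to the place after Ngfr and Ret in both pull-downs, and Gfra3 of Cre+ pull-down 1 lies at 1.36, far below the other libraries.

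Of the neurotrophin receptors, Ntrk3 was the one whose transcript was concentrated in the pull-downs of both genotypes. It had 49.9, 72.8 and 66.1 normalized counts in the Cre+ inputs and 341, 261 and 258 in the Cre+ pull-downs. The Cre- inputs had 61.5, 90.9 and 69.3 and the Cre- pull-downs 269, 337 and 316. Every pull-down exceeded every input by a wide margin, and the pull-downs of both genotypes occupied the same range. Ntrk3 was called higher in both (log2 fold change 2.19 ± 0.30 SE, FDR = 0.0269 in Cre+ and 2.05 ± 0.19, FDR = 0.000118 in Cre-, edgeR's quasi-likelihood test). The enrichments differed by 0.17 ± 0.32 (FDR = 0.806), and the pull-downs themselves by 0.01 ± 0.23 (FDR = 0.976, 95% interval -0.43 to 0.46). In Cre+ the call was lost without any of the 3 inputs (FDR = 0.158, 0.106 and 0.139, log2 fold change 2.04 to 2.30), when no gene of the 8947 was called.
Ntrk2 behaved otherwise. Its normalized counts were 55.8, 63.7 and 59.9 in the Cre+ inputs and 38.5, 99.0 and 81.8 in the pull-downs. In Cre- they were 33.0, 72.6 and 40.9 in the inputs and 64.6, 43.8 and 23.4 in the pull-downs. Inputs and pull-downs overlapped in both genotypes, and the log2 fold changes were 0.29 ± 0.43 (FDR = 0.715, Cre+) and -0.15 ± 0.37 (FDR = 0.819, Cre-). The 95% intervals (normal, from the SE) were -0.56 to 1.14 and -0.88 to 0.58. The pull-downs of the 2 genotypes differed by 0.85 ± 0.44 (FDR = 0.198). Without Cre+ pull-down 1, Ntrk2 was called higher in the Cre+ pull-downs than in the Cre- pull-downs.
Within a library, scaling between libraries has no bearing on the proportion of the 2 Trk transcripts. Per length, Ntrk3 made up 69.8, 74.7 and 74.0% of Ntrk2 and Ntrk3 together in the Cre+ inputs and 95.8, 87.2 and 89.1% in the Cre+ pull-downs. In the Cre- libraries it was 82.8, 76.4 and 81.4% in the inputs and 91.5, 95.2 and 97.2% in the pull-downs. Every pull-down had a larger share of Ntrk3 than every input of its genotype. The same was true of the counts without regard to length, with 47.2 to 53.4% against 72.5 to 89.8% in Cre+ and 55.6 to 65.1% against 80.6 to 93.1% in Cre-.

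**Figure D2:**
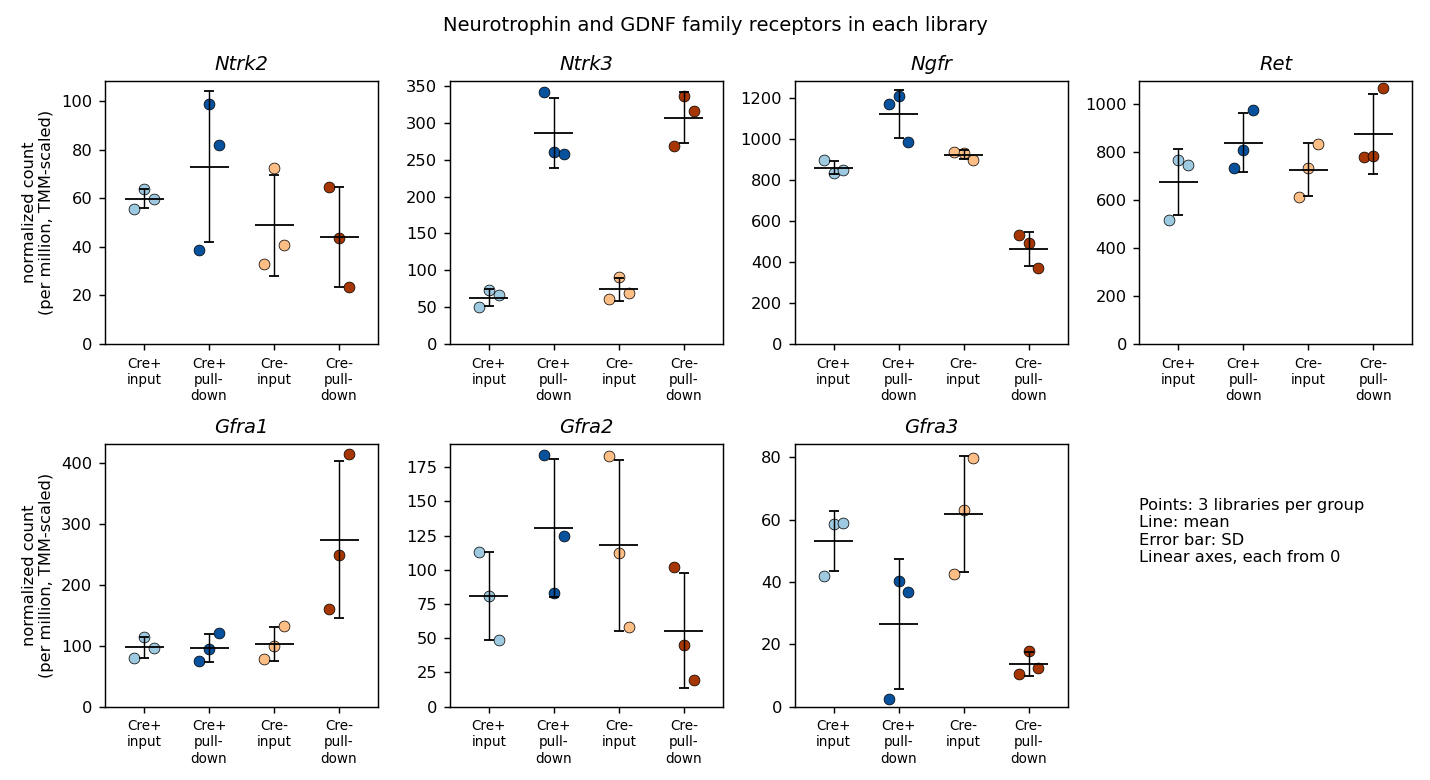
Normalized counts (scaled to 1000000 per library after TMM within a genotype) of each receptor in the 12 libraries, with mean and SD over the 3 libraries of a group and linear axes from 0. Ntrk3 is high in both pull-downs, Ngfr is lowest and Gfra1 highest in the Cre- pull-downs, and Gfra3 is below its inputs in both.

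Ngfr was lower in the pull-downs of Cre-, and its enrichment differed between the genotypes. It had 894, 832 and 848 normalized counts in the Cre+ inputs and 1167, 1206 and 985 in the Cre+ pull-downs, all 3 above all inputs. In the Cre- libraries it had 936, 932 and 896 in the inputs and 528, 492 and 368 in the pull-downs, all 3 below all inputs. The rise in Cre+ did not pass the test (log2 fold change 0.38 ± 0.23, FDR = 0.336), and its sign depended on the scaling, with -0.06 when libraries were scaled by size alone. In Cre- the fall was clear of the spread (-0.99 ± 0.16, FDR = 0.00213) and just short of the 2-fold limit, so Ngfr was not called there. It passed the limit under both other filters, both other scalings and the fit of 12 libraries, with -1.0 to -1.22, and without Cre- input 3, pull-down 1 or pull-down 2. The difference between the enrichments passed (1.42 ± 0.25, FDR = 0.0186), and leaving out any library left it called (1.28 to 1.51, FDR = 0.00694 to 0.0878). The Cre+ pull-downs exceeded the Cre- pull-downs by 1.39 ± 0.18 (FDR = 0.000773), whereas the inputs differed by -0.03 ± 0.18 (FDR = 1).

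Ret, the kinase shared by the GDNF family co-receptors, was abundant and nearly even. The Cre+ inputs had 517, 766 and 746 normalized counts and the Cre+ pull-downs 735, 808 and 974. In Cre- these were 613, 734 and 832 in the inputs and 780, 782 and 1069 in the pull-downs. The ranges overlapped in both genotypes, and neither change passed (0.31 ± 0.26, FDR = 0.495 and 0.27 ± 0.17, FDR = 0.317). The 95% intervals, -0.21 to 0.83 in Cre+ and -0.07 to 0.61 in Cre-, stay within 2-fold. The difference between the enrichments was 0.08 ± 0.31 (FDR = 0.908).

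Of the co-receptors, Gfra1 was called higher and Gfra3 lower in Cre-, and none was called in Cre+. Gfra1, the co-receptor of GDNF, had 80.4, 115 and 96.6 normalized counts in the Cre+ inputs and 74.2, 93.9 and 120.0 in the Cre+ pull-downs, which overlapped. In Cre- it had 78.1, 98.7 and 133 in the inputs and 159, 249 and 414 in the pull-downs. All Cre- pull-downs lay above all inputs, with a wide spread among them. It was called higher there (1.41 ± 0.31, FDR = 0.0115) and not in Cre+ (-0.02 ± 0.34, FDR = 0.978). The difference between the enrichments was not called (-1.38 ± 0.47, FDR = 0.145). DESeq2 called it lower, as did edgeR without Cre+ pull-down 3 or without Cre- pull-down 1. The Cre+ pull-downs were lower than the Cre- pull-downs (-1.39 ± 0.34, FDR = 0.0188). Without Cre- pull-down 3, the highest, the enrichment was 0.999 (FDR = 0.0326), at the edge of the 2-fold limit and no longer called, and the pull-downs differed by -0.97 (FDR = 0.111). In a fit of the 6 pull-downs alone the pull-down difference was -1.42 with FDR = 0.11.
Gfra2, the co-receptor of neurturin, was the least even of the 7 among inputs. The Cre+ inputs had 113, 80.8 and 48.9 normalized counts and the pull-downs 184, 83.2 and 125. The Cre- inputs had 183, 112 and 58.4 and the pull-downs 102, 45.1 and 19.4. Both pairs of groups overlapped, and the estimates (0.69 ± 0.43, FDR = 0.348 in Cre+ and -1.08 ± 0.52, FDR = 0.179 in Cre-) did not pass. In Cre- each pull-down nevertheless lay below the input of its own number, and with that number as a replicate block Gfra2 was called lower (-1.24, FDR = 0.00525). The difference between the enrichments, 1.81 ± 0.77 (FDR = 0.223), was the largest estimate among the 7 and did not pass, nor did the pull-down difference (1.34 ± 0.55, FDR = 0.114), which DESeq2 called (1.41, adjusted p = 0.0469). Without Cre- pull-down 1 the change in Cre- was -1.84 (FDR = 0.00551), the difference 2.58 (FDR = 0.0945) and that of the pull-downs 2.12 (FDR = 0.0382). The last was also called without Cre+ pull-down 2 (1.58, FDR = 0.0786).
Gfra3, the co-receptor of artemin, was low in the pull-downs of both genotypes. It had 41.9, 58.6 and 58.8 normalized counts in the Cre+ inputs and 2.55, 40.4 and 36.8 in the pull-downs. In Cre- these were 42.4, 63.0 and 79.8 in the inputs and 10.5, 17.9 and 12.5 in the pull-downs. Every pull-down lay below every input in both. It was called lower in Cre- (-2.18 ± 0.30, FDR = 0.000821) and not in Cre+ (-0.999 ± 0.81, FDR = 0.477), where Cre+ pull-down 1 had 23 counts and the other pull-downs 331 and 319. Without that library the Cre+ change was -0.42 (FDR = 0.463), and the difference between the enrichments, 1.23 ± 0.93 (FDR = 0.485) with all libraries, was 1.77 (FDR = 0.0325). The pull-downs of the 2 genotypes differed by 1.09 ± 0.66 (FDR = 0.277), and without Cre+ pull-down 1 that difference was called, higher in Cre+. The call in Cre- was kept without each library in turn, with -2.42 to -1.95.

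The make-up of the co-receptors within a library differed accordingly. Per length, Gfra1 was 23.3, 30.3 and 30.3% of Gfra1 to Gfra3 together in the Cre+ inputs, 22.4, 29.9 and 31.0% in the Cre+ pull-downs and 17.8, 23.6 and 31.4% in the Cre- inputs. In the Cre- pull-downs it was 48.9, 69.6 and 87.4%, above all 9 other libraries. Gfra3 was 32.1 to 48.7% in the Cre+ inputs and 25.5 to 49.8% in the Cre- inputs. It was 8.49, 13.2 and 6.97% in the Cre- pull-downs and 2.03, 33.9 and 25.1% in the Cre+ pull-downs, where 2 of 3 stayed in or near the range of the inputs. The share of Gfra2 ran from 5.59% in Cre- pull-down 3 to 75.6% in Cre+ pull-down 1.

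**Figure D3:**
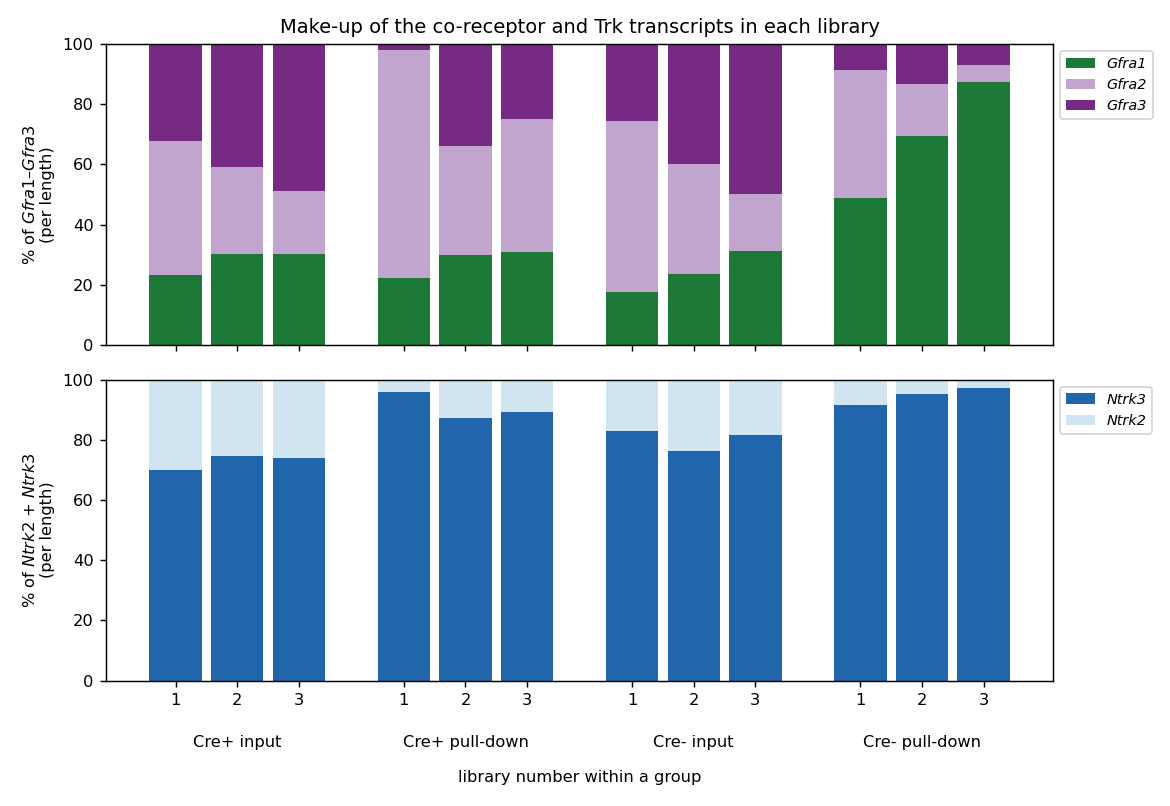
Percent of the summed normalized counts per kb of Gfra1 to Gfra3 (top) and of Ntrk2 and Ntrk3 (bottom) in each of the 12 libraries, numbered within their group. Gfra1 takes 48.9 to 87.4% in the Cre- pull-downs and at most 31.4% elsewhere, and Ntrk3 takes a larger share in every pull-down than in the inputs of its genotype.

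Counted together, 1 of the 7 receptors was called higher in the Cre+ pull-downs (Ntrk3, against 5.17% of the 8947 genes tested) and 0 lower (2.49% of all genes). At an unadjusted p under 0.05 none of the 7 was lower by edgeR either, and DESeq2 called 0. In Cre- 2 were called higher (Ntrk3 and Gfra1, against 6.06% of 11526 genes) and 1 lower (Gfra3, against 5.93%). Groups did not overlap for 2 receptors with higher pull-downs in Cre+ (Ntrk3 and Ngfr, against 15.5% of genes) and 1 with lower pull-downs (Gfra3, against 17.9%). In Cre- there were 2 of each (Ntrk3 and Gfra1 above, Ngfr and Gfra3 below, against 18.2% and 18.6%). The difference between the enrichments was called higher in Cre+ for 1 (Ngfr, against 2.64% of 8830 genes) and lower for 0 (2.15% of genes), and DESeq2 called Gfra1 lower. Between the pull-downs, 1 was higher in Cre+ (Ngfr, against 10.8%) and 1 lower (Gfra1, against 7.23%). These comparisons share libraries. Between the inputs no receptor was called, as no gene was (0% of 8830, with 16 genes at an unadjusted p under 0.05 in edgeR and 0 called by DESeq2), and all 7 had FDR = 1 with log2 fold changes from -0.47 (Gfra2) to 0.37 (Ntrk2). With 7 members, 1 or 2 calls are few in number, and the shares of all genes are given for comparison only. The median log2 fold change of the 7 was 0.31 in Cre+ and -0.15 in Cre-, beside 0.08 and -0.04 over all genes tested.

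**Figure D4:**
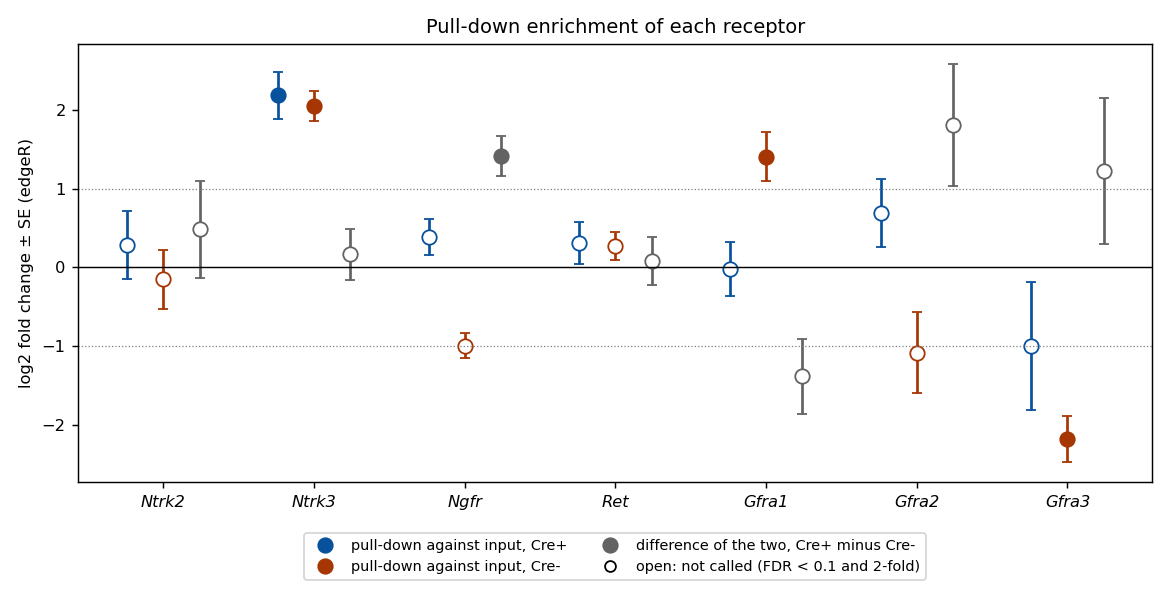
Log2 fold change ± SE (edgeR) of pull-down against input in Cre+ and in Cre-, and the difference between both from the fit of 12 libraries, for the 7 receptors. Filled points were called (FDR below 0.1 and at least 2-fold) and dotted lines mark 2-fold. Ntrk3 is called in both genotypes, Gfra1 and Gfra3 in Cre- only, and of the differences that of Ngfr is called.

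Markers of other cells moved beside these receptors. Ngfr is also made by Schwann and satellite glia. Of 14 glial markers 8 were listed in Cre+ and 13 in Cre- (Erbb3 in neither), and their sum was 2926 to 4028 normalized counts in the Cre+ inputs, 1894 to 2728 in the Cre+ pull-downs, 3329 to 4715 in the Cre- inputs and 1667 to 2067 in the Cre- pull-downs. The most abundant was Pmp22, a peripheral myelin gene. The glial transcription factor Sox10 had 16.2 to 97.8 in the Cre+ inputs and 9.58 to 104 in the Cre+ pull-downs, and 24.9 to 29.7 against 2.31 to 27.0 in Cre-. S100b, a calcium-binding protein that some sensory neurons also make, went from 288 to 370 in the Cre- inputs to 447 to 571 in the pull-downs, and from 253 to 423 to 123 to 210 in Cre+. By edgeR 0 of 8 tested glial markers were called in Cre+ (1 at an unadjusted p under 0.05), and 4 of 11 were lower in Cre-, beside 2.49% and 5.93% of all genes called lower. Gfra3 is known from peptidergic nociceptive neurons. Of the markers of sensory neurons other than proprioceptors, 5 of 14 tested were lower in Cre- and, beside the same shares of all genes, 2 of 12 in Cre+ (Calca and Calcb, which encode CGRP peptides). Their summed level was 3000 to 3253 in the Cre- inputs and 756 to 1939 in the Cre- pull-downs, whereas the Cre+ inputs (3015 to 3273) and pull-downs (2490 to 3550) overlapped. By edgeR all 8 proprioceptor markers were higher in the Cre- pull-downs (6.06% of all genes) and 0 of 7 tested in the Cre+ pull-downs (5.17% of all genes, and 1 of the 7 at an unadjusted p under 0.05). Endothelial markers summed to 51.6 to 96.0 in the Cre+ inputs and 118 to 561 in the Cre+ pull-downs, with 2 of 5 called higher (Tek and Flt1, beside 5.17% of all genes). Fibroblast markers (68.1 to 98.2 in the Cre+ inputs, 67.5 to 81.3 in the pull-downs, and 83.3 to 102 and 25.5 to 97.5 in Cre-) and macrophage markers (25.8 to 68.2, 4.85 to 112, 57.5 to 128 and 52.9 to 76.7) were low. Of 7 fibroblast markers 5 were listed in Cre+ and 7 in Cre-, and of 8 macrophage markers 2 and 6. The part of these cells in the receptor values was not tested.

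Of the ligands, 3 of 8 were listed, among them Bdnf and Gdnf. Bdnf, the ligand of TrkB, had 44.5, 48.1 and 60.2 normalized counts in the Cre+ inputs and 53.6, 29.9 and 21.9 in the pull-downs, and 45.7, 40.9 and 73.5 against 42.2, 39.0 and 56.4 in Cre-. Neither change passed (-0.54 ± 0.49, FDR = 0.532 and -0.22 ± 0.26, FDR = 0.611). Gdnf, the ligand of Gfra1 with Ret, had 10.9, 25.6 and 11.1 in the Cre+ inputs and 24.1, 31.8 and 27.9 in the pull-downs, and 14.3, 14.8 and 14.2 against 12.3, 8.60 and 1.04 in Cre-. It was called in neither genotype (0.82 ± 0.59, FDR = 0.422 and -0.97 ± 0.61, FDR = 0.311), and between the pull-downs it was higher in Cre+ (2.04 ± 0.68, FDR = 0.0588), the reverse of its co-receptor Gfra1. That call was lost without Cre- pull-down 2 or 3 (FDR up to 0.136).

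Of the further receptors and co-receptors that act with the 7, Sort1 and Sorcs1 were called higher in Cre-. Sort1 encodes sortilin, which pairs with p75NTR for precursor neurotrophins and also sorts Trk receptors. It had 18.8, 17.5 and 18.4 normalized counts in the Cre+ inputs and 15.5, 17.4 and 25.1 in the pull-downs. In Cre- it had 10.1, 18.2 and 18.7 in the inputs and 72.2, 78.4 and 76.7 in the pull-downs. The Cre- pull-downs thus stood apart from the other 9 libraries, with Sort1 up and Ngfr down. Sort1 was called higher in Cre- (2.27 ± 0.26, FDR = 0.000316), and its enrichment differed between the genotypes (-2.14 ± 0.51, FDR = 0.0614). Its relative Sorcs1 was also higher in Cre- (1.90 ± 0.30, FDR = 0.00177), from 5.20 to 5.76 in the inputs to 17.2 to 24.2 in the pull-downs. Sorl1, another member of the family, did not pass there (-0.06 ± 0.23, FDR = 0.882). In this group 0 of 9 tested genes were called in Cre+ by edgeR (0 at an unadjusted p under 0.05), and 2 of 10 were higher and 1 lower in Cre-. Of all genes, 5.17% were higher and 2.49% lower in Cre+ and 6.06% and 5.93% in Cre-, and the counts of this and the other pathway groups stand beside these shares.

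Among the adaptors and proximal effectors, which couple activated receptors to Ras, Rap1 and phospholipase C, 3 of 25 tested genes were higher in the Cre+ pull-downs (5.17% of all genes). Kidins220, a membrane scaffold that binds Trk receptors and p75NTR, had 444, 614 and 702 normalized counts in the Cre+ inputs and 1479, 1362 and 1019 in the pull-downs (1.13 ± 0.28, FDR = 0.0687). Its Cre- values, 526, 633 and 638 against 849, 924 and 753, also rose but by less than 2-fold (0.49 ± 0.15, FDR = 0.0423), and the difference did not pass (0.68 ± 0.30, FDR = 0.225). Sos1, an exchange factor for Ras, rose by 1.28 ± 0.27 (FDR = 0.0501) and Rapgef1, an exchange factor for Rap1, by 1.17 ± 0.34 (FDR = 0.096) in Cre+. Sos1 was not called in Cre- but also rose there, from 296, 220 and 210 normalized counts in the inputs to 334, 392 and 403 in the pull-downs. In Cre- 2 of 28 were higher (6.06% of all genes) and 2 lower (5.93%). The higher ones were Rapgef1 (1.05 ± 0.17, FDR = 0.00208) and Plcg1, the phospholipase C that Trk receptors recruit (1.15 ± 0.35, FDR = 0.044). The lower ones were Dok5, a docking protein of Ret (-1.64 ± 0.22, FDR = 0.000775), and Cblb, a ubiquitin ligase that ends receptor tyrosine kinase signals (-1.05 ± 0.20, FDR = 0.00505). Cblb had 101, 73.5 and 82.3 normalized counts in the Cre- pull-downs and 139 to 243 in the other 9 libraries, and its enrichment differed between the genotypes (1.27 ± 0.36, FDR = 0.086).
Of 24 downstream kinases and their partners, 2 were higher in Cre+, among them Pik3ca, a catalytic subunit of phosphoinositide 3-kinase (1.29 ± 0.36, FDR = 0.087). In Cre- 1 was higher, the ribosomal S6 kinase Rps6ka1 (1.68 ± 0.62, FDR = 0.0905), which is named after its value was seen. Pik3ca was not called in Cre- but also rose there, from 72.7, 93.2 and 119 normalized counts in the inputs to 150.5, 199 and 220 in the pull-downs. Of 10 receptor trafficking genes tested, which move activated receptors through endosomes, 2 were lower in Cre+ (2.49% of all genes) and 8 were not called. The 2 were Cfl1, which severs actin filaments (-1.44 ± 0.34, FDR = 0.0646), and Rabgef1, which activates the endosomal Rab5. Rabgef1 had 53.6, 45.9 and 32.0 normalized counts in the Cre+ inputs and 9.66, 10.6 and 6.12 in the pull-downs (-2.32 ± 0.56, FDR = 0.0669), against 31.0 to 44.7 in all 6 Cre- libraries. The Cre+ pull-downs were thus apart from the other 9 libraries, and the difference between the enrichments was called (-2.44 ± 0.51, FDR = 0.0372). In Cre- 1 trafficking gene was higher, Ehd4, which takes part in Trk endocytosis (1.15 ± 0.20, FDR = 0.00311).
Of the feedback regulators and nuclear targets, 0 of 10 were called in Cre+ by edgeR (3 at an unadjusted p under 0.05) and 1 of 13 was lower in Cre-, the immediate early gene Egr1 (-1.07 ± 0.26, FDR = 0.0172). Spred2, which restrains signalling from Ras, differed in its enrichment (1.64 ± 0.42, FDR = 0.0713), with 94.0, 132 and 150.0 normalized counts in the Cre+ inputs, 244, 224 and 135 in the Cre+ pull-downs, and 299, 183 and 154 against 110, 127 and 102 in Cre-.

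Over all 6 pathway groups, 5 of 80 tested genes were higher and 2 lower in Cre+, beside 5.17% and 2.49% of all genes. Their median log2 fold change was 0.38, beside 0.08. In Cre- 6 of 88 were higher and 4 lower, beside 6.06% and 5.93%, with a median of -0.09 beside -0.04. These counts are near those of all genes. Between the pull-downs 12 of 79 were higher in Cre+ and 7 lower, beside 10.8% and 7.23% of all genes. The smallest FDR among the higher ones were those of Cblb (1.29 ± 0.26, FDR = 0.0083), Egr1 (1.59 ± 0.34, FDR = 0.0112), Spry2, a feedback inhibitor of receptor tyrosine kinases (2.58 ± 0.70, FDR = 0.0295), and the docking protein Gab1 (1.83 ± 0.52, FDR = 0.033). Among the lower ones they were those of Rabgef1 (-2.07 ± 0.37, FDR = 0.00522), Sort1 (-1.85 ± 0.37, FDR = 0.0083), Ehd4 (-1.42 ± 0.33, FDR = 0.0154), Maged1, a p75NTR-binding protein (-1.05 ± 0.25, FDR = 0.0183), and Sorcs1 (-2.15 ± 0.71, FDR = 0.0597). Spry2 had 21.1, 65.0 and 337 normalized counts in the Cre+ pull-downs and 18.3, 28.6 and 30.4 in the Cre- pull-downs, so that the groups overlapped and Cre+ pull-down 3 stood apart. Without that library its difference was 0.86 (FDR = 0.174). With any of the 12 libraries left out, Cblb, Egr1, Rabgef1, Sort1 and Ehd4 kept these calls. Those of Gab1 and Sorcs1 were lost without Cre- pull-down 2 or 3, that of Sorcs1 also without Cre+ pull-down 3, and that of Maged1 without pull-down 3 of either genotype.

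The pattern of each receptor over the 12 libraries was set beside that of all 8830 genes tested in both genotypes (Pearson's r of log2 of normalized counts + 1, as a description, since inputs and pull-downs come from the same cultures). Nearest to Ntrk3 were Synj1 and Ttc3 (r = 0.99 each), and to Gfra3 Cckbr and Serinc2 (r = 0.97 each). Nearest to Ngfr were Tusc5 (0.96) and Lrrc8d (0.95), to Gfra1 Snap91 (0.95) and Rab11fip5 (0.93), and to Ret Slc7a14 and Irs2 (0.93 each). Nearest to Gfra2 were 4931429I11Rik and Wdr46 (0.91 each) and to Ntrk2 Pcdhgc3 (0.87) and Sec14l1 (0.86). Among the receptors themselves, Ngfr and Gfra2 went together (r = 0.73), while Gfra1 ran opposite to Ngfr (-0.89) and to Gfra2 (-0.85), and Ntrk3 opposite to Gfra3 (-0.74). For Ret r was 0.60 with Gfra1, -0.48 with Gfra2, -0.14 with Gfra3 and 0.61 with Ntrk3, and Ntrk2 and Ngfr had 0.56. Differences between the groups of libraries enter all these values.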

How the data were processed

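RNA was sequenced from 3 HA pull-downs and 3 inputs each of cultured DRG neurons labelled Rpl22HA/HA Runx3-Cre+ and Rpl22HA/HA Runx3-Cre-. The authors aligned reads to mm10 with STAR, counted uniquely mapped fragments per refSeq gene with HTSeq, and deposited 1 table per genotype with raw counts per library. The deposited FPKM is the mean over the 6 libraries of a table, as the authors computed it, and was used as a filter (mean above 1) and for length. CASAVA 1.8.2 is named in the submitters' processing notes. Each table holds 12 further columns, with normalized counts, ratios and the authors' own fold changes, p-values and FDR, which were not used. The columns of the Cre- table are marked wt. Those of the Cre+ table match no sample title of that group, and its pull-down columns resemble, apart from punctuation, titles of Cre- pull-downs. These libraries were assigned to the group only, from the table that the labels name, and their numbers only tell them apart.

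edgeR 4.0.16 in R 4.3.3 (TMM, glmQLFit, glmQLFTest) tested pull-down against input on the 6 libraries of each genotype (8947 and 11526 genes), and the difference between the enrichments, the inputs and the pull-downs in 1 fit of 12 libraries on 8830 genes. FDR is the Benjamini-Hochberg adjusted p-value over all genes tested. A gene was called at FDR below 0.1 and at least 2-fold, as in the methods of the study. The SE was the size of the log2 fold change divided by the square root of F. Levels are counts scaled to 1000000 after TMM within a genotype, which differ from scaling over 12 libraries by a factor of 0.942 to 1.03. The implied length is the mean count of a gene, scaled to 1000000 counts on listed genes, divided by the deposited FPKM, averaged over both tables. The fits were run on simulated counts, with changes above the 2-fold limit and the same dispersion for all genes. That run does not show how they perform near the limit or at the spread of these data. Counts on listed genes were 8886308 to 18633365 per library. As the reads carry no molecular identifiers, precision from counts covers counting error only, and the lowest receptor count was 23.

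Alternatives varied the tool (DESeq2 1.42.0 or edgeR's exact test), the filter (10 counts or more in 3 or more samples, or none), the scaling (upper quartile, or library size only), the threshold (FDR below 0.05, or any fold), and the samples (a joint fit of 12 libraries, each library left out, and a replicate block for Cre-). Fits of the 6 pull-downs or the 6 inputs alone, and left-out libraries for pathway genes, were added after the data were seen. The genes named are the 7 receptors, Runx3, the listed ligands, the pathway genes called in a comparison (at most 5 per direction by smallest FDR), and the 2 genes nearest to each receptor. The members and lists were chosen with earlier results of these data known. Some of the ligand and pathway genes that this rule names are not reported here. Promoter windows came from RefSeq, exons from GENCODE M21, both on GRCm38, and figures were drawn with matplotlib 3.10.9.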

Additional observations from a re-analysis of the deposited data

Results flagged for a closer look

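The enrichment of Ngfr differed between the genotypes by 1.42 on the log2 scale (Cre+ minus Cre-, interaction term in edgeR), the only one of the 7 receptors for which this test passed. Among the pathway genes the same test passed for Sort1 (-2.14), Cblb (1.27), Rabgef1 (-2.44) and Spred2 (1.64). These were 2 higher and 2 lower of 79 tested, near the 2.64% and 2.15% of all genes. With each of the 12 libraries left out in turn, Ngfr kept this call in all 12 fits, Rabgef1 in 8, Sort1 and Cblb in 4 and Spred2 in 3. Ngfr and Cblb were low in the Cre- pull-downs, where Sort1 was high, and Rabgef1 was low in the Cre+ pull-downs. In view of the Runx3 values, which go against the labels, these directions hold for the libraries as labelled.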

How the results depend on the processing

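Of 630 log2 fold changes of the 7 receptors under an alternative, 602 kept their side of the threshold, 28 crossed it, and no call reversed. Signs of uncalled values changed 39 times, among them Ntrk2, Ngfr and Ret in Cre+ with scaling by library size alone (-0.12, -0.06 and -0.13). Without each Cre+ input, the count of receptors called higher in Cre+ was 0, in place of 1. Without Cre- pull-down 3 it was 1 in place of 2 in Cre-. The count called lower in Cre- was 2 in place of 1 with the count filter, no filter, upper-quartile scaling, library size alone and all 12 libraries in one fit, since Ngfr crossed the 2-fold limit, 2 with no fold limit, where Ngfr passed at its unchanged -0.99, and 1 to 3 with a library left out. For the difference between the enrichments, 1 to 2 were called higher and 0 to 1 lower with a library left out, and 1 lower with DESeq2 (Gfra1, -1.35). Between the pull-downs, 2 were called higher with DESeq2 and 1 to 3 with a library left out. The 3 were Ntrk2, Ngfr and Gfra3, without Cre+ pull-down 1. Called lower were 0 in the fit of the 6 pull-downs alone, added after the data were seen, and 0 to 1 with a library left out. The cause of these changes was not tested.

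By the deviations from the group means, Cre- libraries of equal replicate number correlated only weakly (r = 0.075, 0.034 and 0.141). Each pull-down nevertheless correlated best with the input of its own number, as a hint from the data. Inputs and pull-downs come from the same cultures, and the main tests did not use a pairing. With the replicate block, 3 receptors were lower in Cre- (Ngfr -1.01, Gfra2 -1.24 with FDR = 0.00525, and Gfra3), and 689 and 757 genes were called in place of 698 and 684. No block was fitted for Cre+, whose columns were assigned to the group only.

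Counts over all genes moved as well. In Cre+ 463 genes were called higher and 223 lower, against 1103 and 568 with DESeq2, 794 and 485 with the exact test, 1248 and 939 in one fit of 12 libraries, 247 and 271 with upper-quartile scaling, 195 and 713 with library size alone, and 121 and 25 at FDR below 0.05. In Cre- 698 and 684 became 433 and 1249 with library size alone, 1494 and 1278 with no fold limit, and 265 and 173 in one fit. For the difference 233 and 190 became 615 and 420 (DESeq2), 93 and 207 (upper quartile), 78 and 284 (library size) and 35 and 58 (FDR below 0.05). Between the pull-downs 955 and 638 became 608 and 850, 527 and 993 and, at FDR below 0.05, 604 and 422, and in the fit of 6 pull-downs 146 and 134. With 1 library left out, the calls higher and lower were 0 to 825 and 0 to 565 in Cre+ (0 without any input), 573 to 818 and 524 to 1064 in Cre- (highest without pull-down 1), 12 to 720 and 30 to 698 for the difference (lowest without Cre- input 2, highest without Cre+ pull-down 2), and 382 to 1372 and 324 to 1090 between the pull-downs (lowest without Cre- pull-down 3, highest without Cre+ pull-down 2), so the shares of all genes move alike. Of the pathway genes called in Cre-, left-out libraries, tried after the data were seen, ended the calls of Plcg1 (input 1 or pull-down 1), Cblb (input 2, input 3 or pull-down 2), Rps6ka1 (input 1, input 2, pull-down 2 or pull-down 3), Egr1 (input 2 or pull-down 3), Rapgef1 (pull-down 1) and Ehd4 (pull-down 3). In Cre+ that of Rapgef1 also ended without pull-down 2 or 3 and that of Pik3ca without pull-down 3. The share of calls that were higher fell from 67.5% to 47.7% and 21.5% in Cre+ with upper-quartile and library size scaling, from 50.5% to 25.7% in Cre- with library size, from 55.1% to 31.0% and 21.5% for the difference, and from 59.9% to 41.7% and 34.7% between the pull-downs. The median over all genes moved from 0.08 to -0.12 and -0.36 in Cre+, from -0.04 to -0.27 in Cre- with library size, from 0.13 to -0.05 and -0.12 for the difference, and from 0.14 to -0.04 and -0.10 between the pull-downs. Under the 3 scalings the log2 fold change of Ntrk3 itself, with no median taken off, was 1.73 to 2.19 in Cre+ and 1.82 to 2.05 in Cre-.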
